A study of Homo sapiens with 12 samples.

Results

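Semaphorins, plexins, neuropilins, slits, roundabouts, netrins and UNC5 receptors, the ligands and receptors of classical axon guidance, were followed in 2 human prostate cancer lines and in the docetaxel-resistant lines derived from them. Members were all probe sets present in both array types whose only gene symbol in the array annotation belonged to these families. They came to 64 probe sets of 38 genes, out of 22215 probe sets on the smaller array type. Of these, 27 probe sets belonged to 18 semaphorin genes, 15 to 8 plexins, 8 to 2 neuropilins, 6 to 3 slits, 3 to 3 roundabouts, 2 to 2 netrins and 3 to 2 UNC5 receptors.

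Docetaxel is a taxane that stabilises microtubules and is used to treat prostate cancer that has spread. The series set cells selected for resistance to it against the cells they were derived from. The 4 groups were DU145-DR, a docetaxel-resistant line grown under exposure to the drug, DU145, its parental line grown without it, 22Rv1-DR, a second resistant line grown under exposure, and 22Rv1, its parental line grown without it. DU145 is a prostate carcinoma line that grows independently of androgen, and 22Rv1 is a prostate carcinoma line derived from a xenograft. Each group had 3 arrays, replicates 1 and 2 on a smaller Affymetrix array type and replicate 3 on a larger type with 54613 probe sets. Resistance and the presence of the drug cannot be told apart in these groups, and the sources used here give no dose, no time of selection and no word on whether a resistant line is a clone. In bulk RNA, fewer cells of a type and less RNA per cell cannot be told apart either.

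Semaphorins are secreted or membrane-bound ligands that were first described as cues that turn growing axons away. They act through plexins, receptors whose cytoplasmic part acts on small GTPases of the RAS and RAP families and so on adhesion and the actin skeleton. Most secreted class 3 semaphorins bind neuropilins, which have short cytoplasmic tails and signal together with plexins, while membrane-bound semaphorins generally bind plexins directly. Slits are secreted ligands of the roundabout receptors, and netrins are laminin-related ligands of DCC and of the UNC5 family. The same molecules act outside the nervous system in blood vessel growth, epithelial branching, immunity and tumour cell migration, and NRP1 is also a coreceptor of vascular endothelial growth factor.

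The results turn on 5 genes: ROBO1, NRP1, SEMA4D, SEMA3C and PLXNA2. The 250 bases upstream of the annotated start are shown for the 4 of them with an entry in RefSeq's promoter table (GRCh38.p14), since these genes moved between resistant and parental cells, although the arrays measured their mRNA and not the activity of the promoters. ROBO1 lies at chr3:79019460-79019709, SEMA4D at chr9:89495657-89495906, SEMA3C at chr7:80919052-80919301 and PLXNA2 at chr1:208244385-208244634, each on the minus strand and printed 5′ to 3′ along the gene. Capitals mark a GC box (GGGCGG), an E box (CAGGTG) or a TATA box (TATAAA) on either strand, and no marked matches of different motifs overlap.
ROBO1: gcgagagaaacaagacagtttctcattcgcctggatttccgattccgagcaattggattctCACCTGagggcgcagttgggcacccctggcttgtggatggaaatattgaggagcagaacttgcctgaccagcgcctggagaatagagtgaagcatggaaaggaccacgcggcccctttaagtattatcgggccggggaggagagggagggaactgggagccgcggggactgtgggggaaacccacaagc
SEMA4D: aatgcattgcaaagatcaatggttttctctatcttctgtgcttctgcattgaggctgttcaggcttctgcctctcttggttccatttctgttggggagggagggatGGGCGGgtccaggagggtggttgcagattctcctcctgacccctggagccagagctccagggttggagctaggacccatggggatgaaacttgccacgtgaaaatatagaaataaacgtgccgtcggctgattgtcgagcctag
SEMA3C: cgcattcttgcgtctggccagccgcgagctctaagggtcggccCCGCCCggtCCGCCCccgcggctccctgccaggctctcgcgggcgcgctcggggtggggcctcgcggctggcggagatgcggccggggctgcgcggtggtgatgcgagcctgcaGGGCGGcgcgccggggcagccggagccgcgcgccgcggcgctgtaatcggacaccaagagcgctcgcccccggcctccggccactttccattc
PLXNA2: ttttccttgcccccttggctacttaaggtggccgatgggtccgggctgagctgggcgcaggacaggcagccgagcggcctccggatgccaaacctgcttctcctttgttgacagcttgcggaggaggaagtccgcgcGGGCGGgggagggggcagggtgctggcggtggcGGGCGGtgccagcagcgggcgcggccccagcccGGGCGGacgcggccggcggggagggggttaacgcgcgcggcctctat
ROBO1 held 1 E box of the form CAGGTG and no GC box in this window, SEMA4D held 1 GC box, and SEMA3C and PLXNA2 held 3 GC boxes each. Other forms of the E box were not searched for and are not marked. The guanine and cytosine content was 77.6% for SEMA3C and 72.4% for PLXNA2, against 52.4% for SEMA4D and 56.8% for ROBO1. A GC box was present in 22 of 31 member promoters in the table (71%), against 42.6% of all 35116 promoters. An E box was present in 5 of 31 (16.1%), against 17.5%, and a TATA box in 1 of 31 (3.23%), against 10.7%. The member shares count 1 entry a gene, while the shares over all promoters count every entry, so the sets were not picked alike. These matches are letters in a window and describe the sequence alone.

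The identity of the lines was checked first. KRT8 and KRT18, keratins of simple epithelia, lay at or above the 90th percentile of every array. KLK2, a kallikrein gene of prostate luminal cells, lay between the 81st and the 91.5th percentile in 22Rv1-DR and 22Rv1 arrays, and between the 28.4th and the 45.9th in DU145-DR and DU145 arrays. Of 8 luminal genes, 7 were above the array median in 22Rv1-DR and 7 in 22Rv1 (by the median of each group's 3 arrays), against 3 in DU145-DR and 3 in DU145. Of 4 leukocyte and 4 endothelial markers, 0 were above the array median in any group. Of 6 neuronal markers 2 were above it in DU145-DR, against 0 in DU145, and 2 in 22Rv1-DR, against 1 in 22Rv1, while the list's median percentile ran from 33.5 to 45.4 in DU145-DR, 29.4 to 45.2 in DU145, 31.8 to 43 in 22Rv1-DR and 32.8 to 45.1 in 22Rv1. NEFL, a neurofilament gene, lay at the 77.5th, 79.7th and 88th percentile in DU145-DR, against the 30.3rd, 33.4th and 55.9th in DU145. STMN2, a neuronal stathmin gene, stayed between the 3.04th and the 18.7th on all 12 arrays. Whether these differences have a part in the results on guidance genes was not tested.

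Values are probe-set intensities on a linear scale. On the 8 smaller arrays the 5th percentile of all intensities was 35.75 to 38.59 on DU145-DR and DU145 arrays and 11.47 to 12.3 on 22Rv1-DR and 22Rv1 arrays, so intensities there compare resistant with parental cells of the same line and not the lines with each other. Replicate 3 arrays had a common floor (10.85 to 11) and are given beside the others as the third pair, with no test. To describe levels, each intensity was placed as a percentile of its own array. Probe sets differ in how well they bind their target, so a percentile does not rank one gene's mRNA against another's. A name ending in _s_at or _x_at marks a probe set whose probes can match more than 1 transcript, as do NRP1 210510_s_at, PLXNA2 213030_s_at, SEMA3C 203789_s_at and SEMA3E 206941_x_at among those called below. The same holds for SEMA3C 203788_s_at, PLXNB2 208890_s_at, SEMA4F 210124_x_at, PLXNB1 215807_s_at and SLIT2 209897_s_at, which were called between the parental lines.

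In these terms 9 probe sets of 7 genes stood above the array median on all 12 arrays. They were SEMA3C and SEMA3F, secreted class 3 ligands, SEMA4C with 2 probe sets, a membrane-bound ligand of PLXNB2, and the receptors PLXNA1 (2 probe sets), PLXNB1, PLXNB2 and PLXND1. SEMA3C (203789_s_at) ranged from the 70th to the 97.8th percentile, PLXNB2 (208890_s_at) from the 77.7th to the 90.8th and SEMA4C (46665_at) from the 74.5th to the 89.5th. At the other end, 25 probe sets stayed below the median on all 12 arrays, and 8 genes had no probe set above it on any array. Among these were both netrins with members, NTN1 and NTN3, and UNC5C. Above the median on all 3 arrays of a group were 18 probe sets of 12 genes in DU145-DR, 15 of 11 in DU145, 20 of 17 in 22Rv1-DR and 19 of 15 in 22Rv1.

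In DU145-DR cells ROBO1, the slit receptor gene, was far higher than in DU145, while 1 of 3 NRP1 probe sets and SEMA4D were lower. Differences are resistant minus parental log2 of the intensity plus 16, with limma's standard error over 2 arrays per group, and the threshold for a change was 0.05 for the two-sided p after Benjamini-Hochberg adjustment over 14386 probe sets. Of the 64 members, 37 of 29 genes were bright enough in at least 1 group to be tested and 27 were not. In DU145-DR against DU145, 3 of the 37 changed (8.11%), 1 up and 2 down, against 9.37% of all probe sets tested (4.73% up and 4.64% down). The members' median difference was -0.0369, against -0.00786 over all probe sets, so the members as a whole changed no more often than the array. With the replicate number as a block, 8 of the 37 passed, 4 up and 4 down, against 34.1% of all probe sets.

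ROBO1 (213194_at) read 685, 1136 and 534 on DU145-DR replicates 1 to 3, against 66.3, 46.5 and 20.3 on DU145. The DU145-DR reading was thus the higher within each replicate number, and the ratio there was 10.34, 24.42 and 26.35. ROBO1 rose by 3.65 ± 0.27 on the log2 scale (limma adjusted p = 0.000182), with 3.92 on the third pair. The DU145 readings lay at the 21st, 14.2nd and 30.1st percentile of their arrays, near the floor, so the fold depends on that floor and may be a lower bound. On this scale the difference equals a 12.5-fold ratio.

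NRP1, the neuropilin that binds class 3 semaphorins and vascular endothelial growth factor, was read by 3 probe sets that did not move together in DU145-DR. Its probe set 210510_s_at read 229, 258 and 149 in DU145-DR, against 849, 1098 and 298 in DU145, and fell by 1.92 ± 0.21 (limma adjusted p = 0.00121; the third pair -0.93). The DU145-DR reading of this probe set was the lower in each of the 3 pairs. The brighter probe set 212298_at read 2020, 2487 and 1278, against 1176, 1687 and 1663, and was lower in DU145-DR on the third pair alone. Its difference was 0.66 ± 0.25, which did not pass (limma adjusted p = 0.147; 0.0175 with the replicate block), and the third pair gave -0.38, the opposite sign. The third probe set, 210615_at, was too dim to be tested, at 90.5, 67.2 and 16.7 in DU145-DR against 77.2, 70.0 and 21.6 in DU145. A fall of NRP1 in DU145-DR therefore rests on 210510_s_at, and the other probe sets of the gene did not show it.

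SEMA4D (203528_at), a membrane-bound semaphorin that binds PLXNB1, read 170.1, 197 and 58.5 in DU145-DR, against 449, 388 and 187 in DU145. The DU145-DR reading was the lower in each of the 3 pairs. SEMA4D fell by 1.12 ± 0.19 (limma adjusted p = 0.00837; the third pair -1.45). It no longer passed when DU145 replicate 1 was left out (adjusted p = 0.0533), with only the 4 arrays of the line (0.0900) and with all 12 arrays and the array type as a block (0.0625).

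In 22Rv1-DR cells 3 genes were called lower than in 22Rv1: NRP1 by both of its tested probe sets, PLXNA2 and SEMA3C. They encode a coreceptor, a receptor and a ligand of class 3 semaphorin signalling, while SEMA3E, another class 3 ligand, read higher. The fall of SEMA3C was called by 1 of its 2 probe sets and was nearly absent on the third pair (-0.05). Of the 37 tested members 4 changed (10.8%), 0 up and 4 down, against 4.34% of all probe sets (2.31% up and 2.04% down). The 4 probe sets belong to 3 genes, with NRP1 counted by 2, and the members' median difference was 0.0365, against 0.0108 over all probe sets. At an unadjusted p under 0.05 there were 9 members. After quantile normalization, which left 34 members to test, 7 passed, 2 up and 5 down, against 7.15% of all probe sets, and 1 of the 7 was SEMA3E, which is not among the 37. With the replicate block 13 of the 37 passed, 6 up and 7 down, against 20.2%.

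For NRP1, 212298_at read 10.3, 10.1 and 12.5 in 22Rv1-DR, against 72.0, 102 and 75.6 in 22Rv1, and 210510_s_at read 15.8, 17.8 and 17.8, against 93.7, 72.0 and 61.4. Both probe sets separated the groups on all 3 pairs, and the resistant readings of 212298_at lay at the 1.29th, 1.53rd and 9.62nd percentile of their arrays. The differences were -1.96 ± 0.25 for 212298_at (limma adjusted p = 0.00268; the third pair -1.69) and -1.58 ± 0.21 for 210510_s_at (limma adjusted p = 0.00370; the third pair -1.20). The first is bounded by the floor of the arrays and by the 16 added to each intensity: the ratio of resistant to parental intensity itself was 0.1436, 0.09875 and 0.1649. Without 22Rv1 replicate 1 the call of 210510_s_at was lost (adjusted p = 0.0547). The third NRP1 probe set, 210615_at, stayed between 12.9 and 23.1 in both groups.

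PLXNA2 (213030_s_at), a plexin of class 3 and class 6 semaphorins, read 50.9, 28.2 and 77.7 in 22Rv1-DR, against 209, 125 and 159.8 in 22Rv1. The resistant reading was the lower in each of the 3 pairs. PLXNA2 fell by 1.71 ± 0.28 (limma adjusted p = 0.0109; the third pair -0.91). The call was lost without 22Rv1-DR replicate 2 (adjusted p = 0.101), without 22Rv1 replicate 1 (0.102) and with all 12 arrays (0.0575). Its other member, 207290_at, was too dim to be tested, between 12.04 and 18.9 in 22Rv1-DR and 22Rv1.

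SEMA3C (203789_s_at), a secreted class 3 ligand, read 254, 290.0 and 422 in 22Rv1-DR, against 910.2, 1105 and 437 in 22Rv1. Replicates 1 and 2 differed widely and replicate 3 hardly at all. SEMA3C fell by 1.83 ± 0.28 (limma adjusted p = 0.00775), while the third pair gave -0.05. The second SEMA3C probe set, 203788_s_at, read 19.8, 18.3 and 30.3, against 33.1, 24.6 and 35.8, and did not pass (-0.35 ± 0.28, limma adjusted p = 0.740). The SEMA3C call was lost without 22Rv1-DR replicate 1 (adjusted p = 0.0750), without 22Rv1 replicate 2 (0.0764) and with all 12 arrays (0.186).

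ROBO1 was the nearest member to the threshold among those that did not pass in 22Rv1-DR. It read 873, 815 and 1209 in 22Rv1-DR, against 402, 362 and 302 in 22Rv1, and was higher in each pair. The difference was 1.11 ± 0.27 (limma adjusted p = 0.0565; the third pair 1.94), and it passed after quantile normalization (adjusted p = 0.0165) and with the replicate block (0.0362). SLIT1 (213601_at), a ligand of roundabout receptors, read 135, 163 and 151, against 52.7, 82.1 and 410.1. Its difference of 1.00 ± 0.24 did not pass (limma adjusted p = 0.0608; 0.00639 with the replicate block), and the third pair went the other way (-1.35).

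Members below the brightness filter had to be described apart. Fitted without any filter, 27 such probe sets gave 0 calls in DU145-DR, 1 in 22Rv1-DR and 1 in the difference between the lines, against 6.86%, 3.29% and 4.89% of all probe sets. Both calls were SEMA3E (206941_x_at), a class 3 semaphorin that binds PLXND1 without a neuropilin. SEMA3E read 74.0, 62.7 and 41.6 in 22Rv1-DR, against 18, 13.3 and 24.4 in 22Rv1. The difference without the filter was 1.42 ± 0.15 (limma adjusted p = 0.00348; the third pair 0.51), the highest of the 27, whose range was -0.132 to 1.42. In DU145-DR, SEMA3E read 42.8, 41.9 and 13.3, against 54.9, 54.2 and 15.8 in DU145 (-0.27 ± 0.15, limma adjusted p = 0.430; 0.0449 with the block). The 22Rv1 difference minus the DU145 difference was 1.69 ± 0.21 (limma adjusted p = 0.00728; the third pair 0.63). Both calls were lost without 22Rv1 replicate 2 and with all 12 arrays (adjusted p up to 0.180 in 22Rv1-DR and 0.298 for the difference).

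Among the receptors of these ligands, PLXND1, the plexin of SEMA3E, was named after its values were seen, because it moved alike in both lines. Its probe set 38671_at read 744, 898 and 232 in DU145-DR, against 523, 596 and 159 in DU145, and 247, 362 and 232 in 22Rv1-DR, against 159.8, 230.7 and 137 in 22Rv1. The resistant reading was the higher in all 3 pairs of both lines, as it was for 212235_at, with ratios from 1.424 to 1.959 over both probe sets. None of the 4 differences passed (0.54 ± 0.26 and 0.54 ± 0.29 in DU145-DR, 0.60 ± 0.26 and 0.52 ± 0.29 in 22Rv1-DR; limma adjusted p from 0.266 to 0.499), and all 4 passed with the replicate block (adjusted p from 0.00882 to 0.0202). PLXNB2 (208890_s_at), the receptor of SEMA4C, gave -0.64 ± 0.18 in 22Rv1-DR, short of the threshold (limma adjusted p = 0.102; 0.00944 with the block). SEMA4G (219194_at) gave -0.60 in DU145-DR and 0.55 in 22Rv1-DR, and neither passed (limma adjusted p = 0.210 and 0.389; 0.0144 and 0.0284 with the block).

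By family, most members showed no change past the threshold. Of 16 semaphorin probe sets tested, 1 fell in each line and 15 did not pass, with differences from -1.12 to 0.359 in DU145-DR and from -1.83 to 0.547 in 22Rv1-DR. With the replicate block SEMA4A (219259_at) and SEMA4F (210124_x_at) also passed in 22Rv1-DR, at -0.62 and 0.47. The block adjusted p was 0.00933 and 0.0264, against limma adjusted p = 0.333 and 0.416 without the block. On the third pair these probe sets gave -0.16 and -0.02. The other tested SEMA4F probe set, 208124_s_at, gave 0.01 in 22Rv1-DR and did not pass. Of 10 plexin probe sets, 0 changed in DU145-DR and 1 fell in 22Rv1-DR. PLXNC1 (213241_at), the receptor of SEMA7A, read 53.1, 107.6 and 25.5 in DU145-DR, against 97.0, 158.7 and 107.6 in DU145. This probe set was lower in each of the 3 pairs, and its difference of -0.60 ± 0.31 did not pass (limma adjusted p = 0.301, and 0.00957 with the block). The other PLXNC1 probe sets did not show this fall. Without the filter, dim 206470_at and 206471_s_at gave -0.11 and -0.07. On the larger array type 235328_at went the other way, at 79.9 in DU145-DR against 48.5 in DU145 (0.57). PLXNB1 (215807_s_at) gave -0.43 ± 0.18 in 22Rv1-DR (limma adjusted p = 0.299; 0.0246 with the block), and the block values of PLXND1 and PLXNB2 stand above. The 3 slit and 2 UNC5 probe sets gave no call in either line, and of the 3 roundabouts ROBO1 was the call in DU145-DR. ROBO3 gave -0.52 ± 0.29 in DU145-DR and 0.30 ± 0.29 in 22Rv1-DR (limma adjusted p = 0.359 and 0.848). By the median percentile over the parental 22Rv1 arrays, the brightest probe sets of the families were 203789_s_at of SEMA3C, 208890_s_at of PLXNB2, 212298_at of NRP1, 213601_at of SLIT1, 213194_at of ROBO1, 41856_at of UNC5B and, for the dim netrins, 207640_x_at of NTN3. The order differed in other groups. In 22Rv1-DR 212298_at had a median percentile of 1.53, against 38.1 for NRP2 210841_s_at. In DU145 that of ROBO1 was 21, against 67.2 for ROBO3.

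The change itself was then compared between the lines, as the 22Rv1 difference minus the DU145 difference. Of the 37 members 5 differed (13.5%), 1 up and 4 down, against 6.82% of all probe sets (3.73% up and 3.09% down); with the replicate block 12 differed, against 29.7%, the others being PLXNB2, SEMA4F, PLXNC1, SLIT1, SEMA4G, SEMA4A and ROBO3 (block adjusted p from 0.00727 to 0.0407; from 0.0882 to 0.490 without it). Of those others, SEMA4A and SLIT1 had the opposite sign on the third pairs (0.53 and -1.52, against -0.60 and 1.11). NRP1 212298_at gave -2.62 ± 0.35 (limma adjusted p = 0.00374) and ROBO1 -2.53 ± 0.38 (adjusted p = 0.00616). The NRP1 probe set fell in 22Rv1-DR and read higher or lower by pair in DU145-DR, while ROBO1 was higher in both resistant lines and by more in DU145-DR. PLXNA2 gave -1.90 ± 0.40 (limma adjusted p = 0.0283), SEMA3C 203789_s_at -1.70 ± 0.40 (adjusted p = 0.0405) and SEMA4D 1.14 ± 0.26 (adjusted p = 0.0394). In the lines where they were not called, PLXNA2 read 109.9, 93.7 and 63.1 in DU145-DR against 86.2, 88.6 and 43.1 in DU145, and SEMA3C read 2876, 4837 and 2778 against 3517, 4705 and 1663. SEMA4D read 136, 126 and 89.9 in 22Rv1-DR, against 132, 128 and 118 in 22Rv1. All 5 differences had the same sign on the third pairs (-1.31, -1.98, -1.33, -0.78 and 1.11 in the order given). NRP1 210510_s_at, lower in both resistant lines, gave 0.34 ± 0.30 and did not pass (limma adjusted p = 0.667, interval of the difference -0.35 to 1.02).

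The differences of NRP1 212298_at and ROBO1 kept their calls without each of the 8 arrays in turn. That of SEMA4D was lost without any 1 of 7 arrays (all but DU145-DR replicate 2; adjusted p up to 0.180), that of SEMA3C without any 1 of 6 (all but the DU145-DR arrays; up to 0.164), and that of PLXNA2 without DU145 replicate 1, DU145 replicate 2, 22Rv1-DR replicate 2 or 22Rv1 replicate 1 (up to 0.113). With all 12 arrays and the array type as a block these 3 calls were lost too (adjusted p = 0.462 for SEMA4D, 0.355 for SEMA3C and 0.137 for PLXNA2), and that of SEMA3C was lost without the filter on dim probe sets.

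SEMA3C, SEMA3E, SEMA3A and SEMA3D lie on chromosome 7, on the same side of ABCB1, which encodes the efflux transporter P-glycoprotein, with 13, 9, 8 and 7 protein-coding genes between them and it in RefSeq's gene order. ABCB1 itself was higher in both resistant lines, by 5.15 ± 0.51 in DU145-DR (limma adjusted p = 0.000673) and by 6.91 ± 0.51 in 22Rv1-DR (adjusted p = 0.000185). The members beside it did not share a direction in 22Rv1-DR, where SEMA3C fell and SEMA3E was higher. SEMA3A, a class 3 ligand, read 51.6, 40.5 and 19.4 in DU145-DR, against 79.9, 56.9 and 44.3 in DU145, lower in each pair (-0.44 ± 0.19 without the filter, limma adjusted p = 0.295). In 22Rv1-DR SEMA3A read 17.5, 15.6 and 19.2, against 19.97, 14.03 and 14.6 in 22Rv1, lower in 1 pair and higher in the other pairs. SEMA3D, another class 3 ligand, was read by 2 probe sets. Its 215643_at read 19.0, 13.3 and 38.3 in 22Rv1-DR, against 13.5, 8.88 and 12.4 in 22Rv1, higher in each pair, with the reading of 38.3 at the 50.3rd percentile of its array (0.24 ± 0.18 without the filter, limma adjusted p = 0.835). Its 215324_at read 19.3, 21.4 and 18.6, against 19.7, 23.3 and 15.5 (-0.04 ± 0.25 without the filter, limma adjusted p = 1.00). In DU145-DR the ratios of both SEMA3D probe sets to DU145 lay between 0.933 and 1.028.

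Between the parental lines, SEMA6A, ROBO1, SEMA4A and PLXNA2 were higher in 22Rv1, while ROBO3, NRP1 and SEMA3C were lower, and members differed about as often as probe sets at large. Because the floors of the 2 lines differ, this comparison used quantile-normalized values, on which 34 members of 26 genes could be tested among 13068 probe sets. Of these 18 (52.9%) of 15 genes differed between 22Rv1 and DU145, 7 higher and 11 lower in 22Rv1, against 50% of all probe sets (27% higher and 23% lower). The median over the 34 members was -0.188, against 0.0522 over all. On the deposited values without this normalization 35 of 37 members passed, 4 higher and 31 lower, against 83.3% of all probe sets, as the median of all probe sets shifted to -1.35, so directions depend on the scaling.

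Of the 8 largest differences, 4 were higher in 22Rv1. SEMA6A (215028_at), a membrane-bound ligand of class A plexins, differed by 3.91 ± 0.19 (limma adjusted p = 1.01e-05; the third pair 4.53). It read 365, 372 and 588 in 22Rv1, against 41.1, 42.2 and 10.5 in DU145, which were at the 6.505th, 10.4th and 3.48th percentile of their arrays. The other SEMA6A member, 220454_s_at, was too dim to be tested and did not show a gap of that size. It lay at the 33.7th, 17.2nd and 47.0th percentile in 22Rv1, against the 24.1st, 19.8th and 20.7th in DU145. ROBO1 differed by 3.73 ± 0.19 (limma adjusted p = 1.18e-05; the third pair 3.19), SEMA4A by 2.63 ± 0.22 (adjusted p = 0.000107; 1.92) and PLXNA2 by 2.16 ± 0.25 (adjusted p = 0.000409; 1.68). SEMA6A by 215028_at and ROBO1 were thus read well above the floor in 22Rv1 and near it in DU145.

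The other 4 were lower in 22Rv1. ROBO3 (219550_at), a roundabout family receptor, differed by -2.46 ± 0.33 (limma adjusted p = 0.000911; the third pair -2.50), and NRP1 by -2.44 ± 0.20 for 212298_at and -1.96 ± 0.15 for 210510_s_at (adjusted p = 9.69e-05 and 7.89e-05; the third pair -4.21 and -2.01). SEMA3C 203788_s_at differed by -1.89 ± 0.23 (limma adjusted p = 0.000565; the third pair -0.48), and its brighter probe set 203789_s_at by -0.79 ± 0.20 (adjusted p = 0.0146; -1.92). The third pair had the same sign for 15 of the 18 calls. It had the opposite sign for PLXNB2 208890_s_at (1.02 and -0.17; -0.26 on the deposited values), SLIT3 203812_at (-0.77 and 0.11) and PLXNA1 221537_at (-0.83 and 0.11).

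The larger array type carried 54 further probe sets of these families, of 29 genes, 8 of which had no member: NTN4, NTN5, PLXNA4, ROBO2, SEMA4B, SEMA5B, UNC5A and UNC5D. With 1 array per group these give values and no test, and the 5 largest differences each way are named. The largest was a lower NTN4 (223315_at), a netrin of basement membranes, at 75.6 in DU145-DR against 1017 in DU145 (-3.50). SEMA4B (234725_s_at), a membrane-bound semaphorin, read 402 in DU145-DR against 3126 in DU145 (-2.91). In 22Rv1-DR and 22Rv1 both read far lower than in DU145, at 13.7 and 26.2 for NTN4 and 131 and 150.1 for SEMA4B. Smaller falls were PLXNA2 227032_at at 54.6 in 22Rv1-DR against 104 in 22Rv1 (-0.77), NTN5 at 49.2 in DU145-DR against 92.4 in DU145 (-0.73) and SEMA4D 228891_at at 40.5 against 77.2 (-0.72). The PLXNA2 and SEMA4D probe sets went the same way as the members of those genes in the same line.

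ROBO2, a second slit receptor, read 100.4 in 22Rv1-DR against 12.2 in 22Rv1 by 226766_at (2.05), and 50.9 against 14.4 by 226709_at (1.14). In DU145-DR and DU145 both of these stayed between 10.1 and 15.6. NRP2, the second neuropilin, read 105 in DU145-DR against 13.5 in DU145 by 222877_at (2.03), 111 against 28.1 by 225566_at (1.53) and 68.1 against 22.0 by 229225_at (1.15). Its other probe sets on the larger type alone differed less in DU145-DR, by 0.45 (1555468_at), 0.33 (228699_at) and -0.05 (223510_at). Of the 5 NRP2 members on both array types, 210841_s_at alone was bright enough to be tested. It read 86.8, 85.6 and 30.3 in DU145-DR, against 83.3, 89.3 and 33.1 in DU145 (0.00 ± 0.21, limma adjusted p = 1.00). Among the dim members, 210842_at read 65.3, 57.7 and 26.2 in DU145-DR, against 56.5, 50.9 and 14.4 in DU145, and 214632_at read 70.5, 72.5 and 26.2, against 57.3, 54.9 and 17.5. Both were higher in each of the 3 pairs, by ratios from 1.133 to 1.815, and neither passed without the filter (0.15 ± 0.14 and 0.28 ± 0.15, limma adjusted p = 0.804 and 0.415). The ratios of the remaining dim members ran from 0.9794 to 1.206. These were 0.9794, 1.206 and 1.181 for 211844_s_at, and 1.125, 1.035 and 1.021 for 219367_s_at. On the larger type, differences of at least 1 were seen for 3 probe sets up and 2 down in DU145-DR, and for 3 up and 0 down in 22Rv1-DR, of 54. Over all 32398 probe sets found on the larger type alone, the same single arrays differed by at least 1 for 4.64% up and 3.48% down in DU145-DR and for 1.04% up and 1.94% down in 22Rv1-DR. The counts in DU145-DR are near that share. The third rise in 22Rv1-DR was UNC5B, a netrin receptor, by 226899_at at 90.5 against 33.8. SEMA6A by 225660_at read 1152 in 22Rv1-DR and 776 in 22Rv1, but 13.5 in DU145-DR and 24.1 in DU145, so it was high in both 22Rv1 groups as its member 215028_at was. Its 223449_at was high there too (2226 in 22Rv1-DR and 1872 in 22Rv1), while its 1558338_at was not (17.0 in each).

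Beyond the families, 113 other genes of the pathway were followed by their brightest probe set: coreceptors, other ligands, ephrins with their EPH receptors, and signalling proteins inside the cell. In DU145-DR 6 of the 87 tested rose, 4 fell and 77 did not pass, so that 11.5% changed, against 9.37% of all probe sets. The shares over all probe sets count every probe set fitted, while the list holds the brightest probe set a gene. The list was also chosen with earlier results of these data known. Here and below the shares are thus of unlike sets, and whether the list changed more often was not tested. The largest changes were in DAPK1, a death-associated kinase that binds UNC5 receptors, at -2.48 ± 0.22 (limma adjusted p = 0.000425), MCAM, a cell adhesion molecule, at 1.91 ± 0.37 (adjusted p = 0.0159), and DPYSL2, a collapsin response mediator that binds tubulin, at -1.79 ± 0.22 (adjusted p = 0.00223). They were followed by MICAL2, an actin-oxidizing enzyme, at 1.65, TIAM1, an exchange factor of RAC1, at -1.42, and TRIO, another exchange factor, at 1.33.

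In 22Rv1-DR 6 of the 87 rose, 5 fell and 76 did not pass (12.6% changed, against 4.34% of all probe sets, which are an unlike set as said above). DAPK1 changed by 3.14 ± 0.22 (limma adjusted p = 0.000148), opposite to DU145-DR, and MCAM by 2.88 ± 0.37 (adjusted p = 0.00291). DAPK1 read 331, 286 and 230.7 in 22Rv1-DR against 23.6, 18 and 61.0 in 22Rv1, but 64, 48.5 and 15.9 in DU145-DR against 343, 434 and 873 in DU145. CAP2, an actin-binding protein, changed by -2.45 ± 0.20 (limma adjusted p = 0.000274), EPHA3, an ephrin receptor, by -2.44 ± 0.21 (adjusted p = 0.000341), MET, the hepatocyte growth factor receptor and a partner of class B plexins, by -1.88 ± 0.38 (adjusted p = 0.0279) and PAK2, a kinase activated by RAC1 and CDC42, by 1.86 ± 0.25 (adjusted p = 0.00358). On the third pair MET gave -0.18, so its fall was not of that size there.

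Between the lines 4 of the 87 changes were higher in 22Rv1-DR, 5 lower and 78 not past the threshold (10.3%, against 6.82% of all probe sets), and the difference for DAPK1 was 5.62 ± 0.31 (limma adjusted p = 7.99e-05). Among parental cells 17 of 79 genes were higher in 22Rv1, 30 lower and 32 did not pass (59.5% differed, against 50% of all probe sets). EPHA3 was higher by 4.85 ± 0.16 (limma adjusted p = 2.36e-06), while TIAM1, MET, ADORA2B, RND3 and EPHA2 were lower, at -3.74, -2.90, -2.78, -2.66 and -2.65.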

How the data were processed

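Total RNA of the 12 samples was hybridized to Affymetrix arrays. The authors deposited a table for each array type, holding probe-set intensity on a linear scale; the log2 of 100% of the deposited intensities has 2 decimals. MAS5 and RMA appear in the submitters' processing notes without a role or a version. Probe sets with 1 gene symbol in the annotation supplied for the array type were used (19064 of the smaller type).

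Intensities were increased by 16 and put on the log2 scale. A probe set was kept if its mean in at least 1 group was above log2 6.58 (intensity 79.9), the 40th percentile of the table, which left 14386 for a fit over 8 arrays in limma 3.58.1 under R 4.3.3 (lmFit, then eBayes without trend, a term per group, no block, 4 residual and 4.44 prior degrees of freedom). Adjusted p-values are Benjamini-Hochberg over all probe sets fitted. The parental comparison used quantile-normalized values. The sources used here do not say if replicates come from separate cultures, so p-values measure the spread between these arrays, which may be technical, and the number of arrays limits the precision. No detection calls were used.

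The replicate numbers, which the labels share between groups, were checked for pairing: deviations from the group mean correlated at 0.710 between DU145-DR and DU145 arrays and 0.792 between 22Rv1-DR and 22Rv1 arrays over 14386 probe sets, against 0.0810 to 0.114 across lines. With 2 arrays per group these numbers are hints. A fit with line and replicate number as a block was an alternative, and its values stand beside results whose call it changes.

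The genes named are those with a call in either line or in the difference, the 8 largest parental differences, up to 6 pathway genes per comparison, the 5 largest differences each way on the larger array type, and the brightest probe set of each family. PLXND1, PLXNB1, PLXNB2, PLXNC1, SEMA4A, SEMA4F, SEMA4G, SLIT1, SEMA3E, SEMA6A on the larger type, dim NRP2 probe sets and the chromosome 7 neighbours were added for their values or position. The members and lists were chosen with earlier results of these data known. The fit was tested on simulated data. Promoters came from RefSeq (GRCh38.p14).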

Additional observations from a re-analysis of the deposited data

Results flagged for a closer look

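For 5 probe sets the difference between resistant and parental cells was not the same in the 2 lines by limma's test of the difference (22Rv1 change minus DU145 change). It was -2.62 for NRP1 212298_at (adjusted p = 0.00374), which was lower in 22Rv1-DR on all 3 pairs and did not pass in DU145-DR. For ROBO1 it was -2.53 (adjusted p = 0.00616), with higher readings in both resistant lines and a wider gap in DU145-DR. It was -1.90 for PLXNA2 213030_s_at (adjusted p = 0.0283) and -1.70 for SEMA3C 203789_s_at (adjusted p = 0.0405), both lower in 22Rv1-DR and not past the threshold in DU145-DR. SEMA4D 203528_at gave 1.14 (adjusted p = 0.0394), being lower in DU145-DR with 0.01 in 22Rv1-DR. Those of SEMA4D, SEMA3C and PLXNA2 were lost with all 12 arrays (adjusted p = 0.462, 0.355 and 0.137) and without any 1 of 7, 6 and 4 of the 8 arrays. Fitted without the filter, dim SEMA3E 206941_x_at gave 1.69 (adjusted p = 0.00728), lost with all 12 arrays (0.298) and without 1 of 8. After quantile normalization the 5 differences still passed (limma adjusted p up to 0.0318). They were -2.91 for NRP1 212298_at, -2.47 for ROBO1, -1.91 for PLXNA2, -1.68 for SEMA3C and 1.13 for SEMA4D. SEMA3E (1.77) and PLXNB2 208890_s_at (-0.81) passed there too (limma adjusted p = 0.00351 and 0.0464). The floor of the deposited intensities differs between the lines, and its part in these differences was not tested.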

How the results depend on the processing

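Over the alternatives, 852 values were recomputed for 54 member results. These cover most member tests the text gives, but not those of SEMA3A, SEMA3D, SEMA4F 208124_s_at or dim NRP2 and PLXNC1 probe sets. Of the 852, 761 kept their direction and their status as passed or not passed, 44 lost the call, 38 gained it and 9 reversed. Many of the 54 had not passed to begin with, so the 761 are not a count of kept calls. Of the reversals, 8 were of differences that had not passed. SEMA4D in 22Rv1-DR gave -0.049 after quantile normalization, -0.104 with all 12 arrays and -0.0356 to 0.0625 without each array in turn. Left out in the same way, arrays gave -0.0423 to 0.0421 for NRP2 in DU145-DR and -0.145 to 0.741 for ROBO3 in 22Rv1-DR, and the NRP1 210510_s_at difference between lines was -0.243 with a pseudocount of 1. The other was PLXNB2 between parental lines, at -0.255 on deposited values. The SEMA3E alternatives were chosen after seeing the data. The count of changed members in DU145-DR was 3, with 8 under the replicate block and 2 to 5 without each array in turn. In 22Rv1-DR it was 4, with 7 after quantile normalization, 13 under the replicate block, 2 with all 12 arrays and the array type as a block, and 2 to 6 without each array. The difference between lines was called for 5 members, with 12 under the block, 2 with all 12 arrays and 2 to 7 without each array. Between the parental lines 18 were called, with 35 on deposited values and 12 to 19 without each array. Pseudocounts of 1 and 64, other filters on dim probe sets, 1 probe set a gene and only the 4 arrays compared kept each of these counts within 1.5 times. The replicate block was not run for the parental comparison, whose arrays share no block, and the 4-array fit not for the difference between lines. Where leaving out an array leaves 1 in a group, that array is assumed to vary like the others. Readings near the floor, such as NRP1 in 22Rv1-DR and ROBO1 in DU145, limit how large a fold could be seen, and 27 members were too dim to be tested.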
